A study of Mus musculus with 16 samples.

Results

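The Homer genes encode scaffold proteins of the excitatory postsynapse, and the mouse has 3 of them, Homer1, Homer2 and Homer3. All 3 were taken by gene symbol from the table that compares wild type mice at baseline and after sleep deprivation, and they are 3 of 22880 genes in that table. Homer proteins carry an EVH1 domain that binds a proline-rich motif in group I metabotropic glutamate receptors, inositol trisphosphate and ryanodine receptors and Shank scaffolds. The long forms end in a coiled coil through which they assemble and cross-link these partners. A short form of Homer1, Homer1a, lacks the coiled coil, is made from the same gene during neuronal activity, and competes with the long forms for the same partners. Homer1a is known in rodents as a transcript that rises in the forebrain when sleep is prevented.

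Brain cortex RNA came from 16 mice, each sequenced on its own, of an F1 C57Bl6/J x Sv129 background, with 4 mice in each of 4 groups. WT_BL and WT_SD were wild type littermates, and KO_BL and KO_SD were mice labelled BK knockout, which lack the large-conductance calcium- and voltage-activated potassium channel encoded by Kcnma1. BL mice were left undisturbed, SD mice were sleep deprived during the first 4 h of light by gentle handling, and all brains were taken at zeitgeber time (ZT) 4, so every group shares the time of day. The mice were housed in groups of 2. Age, sex, the cell types that lack the channel and the part of Kcnma1 that was deleted were not given in the sources used here. Animals of 1 cage or litter cannot be recognised.

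Sequencing depth, as whole reads recovered from the values, was lowest in KO_BL 1 (8.76 M reads) and highest in KO_SD 2 (30.5 M reads). Kcnma1 itself lay between 1151 and 1889 normalized counts in WT_BL, 822.7 and 1583 in WT_SD, 1425 and 2156 in KO_BL, and 432.2 and 2004 in KO_SD. These ranges overlapped between genotypes, and limma called Kcnma1 in none of the 6 comparisons, so the gene count does not check the genotype labels and every direction given for knockout rests on them. The 6 markers of excitatory neurons summed to 76103 to 119904 normalized counts per library. In bulk tissue, fewer cells of a type and less RNA per cell cannot be told apart. Marker genes of striatum, hippocampus and cerebellum varied between libraries of the same group, and some of them also differed between BL and SD over both genotypes. Their values are given with the results for Homer3 and for the gene lists.

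In GENCODE M21 on GRCm38, Homer1 (ENSMUSG00000007617) lies on the plus strand at chr13:93299635-93405129. It has 11 coding transcripts of 180 to 370 codons, of which 8 have fewer than 250 codons and 3 at least 300. Homer1-208 to Homer1-211, of 772 to 815 bases, are among the 8 and end at chr13:93402270 or chr13:93402306. The 3 long ones end from chr13:93403681 to chr13:93405129, so the codon count alone does not mark a form like Homer1a. Homer2 (ENSMUSG00000025813) lies on the minus strand at chr7:81600481-81707527 with 4 coding transcripts. Homer3 (ENSMUSG00000003573) lies on the plus strand at chr8:70282827-70294361 with 5. The deposited values are per gene, with 1 length per gene in every library, so short and long Homer1 forms cannot be told apart in them.

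The region upstream of the first RefSeq start of each gene is shown as a description, and its part in the response to sleep deprivation was not tested. Each sequence is the 250 bases before the start (RefSeq, GRCm38.p6), read 5′ to 3′ on the strand of the gene. Capitals mark the cAMP response core TGACGT, searched on both strands. The windows are chr13:93303507-93303756 (plus strand) for Homer1, chr7:81706926-81707175 (minus strand) for Homer2 and chr8:70282749-70282998 (plus strand) for Homer3.
Homer1: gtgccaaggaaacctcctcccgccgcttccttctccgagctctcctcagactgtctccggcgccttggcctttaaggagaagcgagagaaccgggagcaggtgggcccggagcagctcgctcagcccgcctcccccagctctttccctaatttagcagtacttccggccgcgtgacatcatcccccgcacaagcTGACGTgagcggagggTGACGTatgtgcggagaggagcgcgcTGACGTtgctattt
Homer2: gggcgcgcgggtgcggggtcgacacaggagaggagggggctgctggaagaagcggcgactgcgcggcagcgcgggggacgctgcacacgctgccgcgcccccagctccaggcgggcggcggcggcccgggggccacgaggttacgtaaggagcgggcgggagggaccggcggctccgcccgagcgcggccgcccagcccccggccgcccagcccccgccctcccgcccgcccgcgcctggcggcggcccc
Homer3: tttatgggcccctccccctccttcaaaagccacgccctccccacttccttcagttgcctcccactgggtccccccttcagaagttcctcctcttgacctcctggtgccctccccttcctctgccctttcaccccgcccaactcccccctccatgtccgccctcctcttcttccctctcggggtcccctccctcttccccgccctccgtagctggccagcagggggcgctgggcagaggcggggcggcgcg

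The Homer1 window adjoins the start of Homer1-207, a coding transcript of 193 codons. The other coding transcripts of Homer1 start further downstream, from chr13:93304102 to chr13:93308034. This window held 3 copies of TGACGT, whose first bases lay 56, 40 and 14 bases before the start. The Homer2 and Homer3 windows held 0. Among 32851 RefSeq promoter windows of the same length, 6.47% held at least 1 copy and 0.152%, which is 50 windows, held at least 3. The full palindrome TGACGTCA, which contains the core on each strand, was in none of the 3 windows and in 1.55% of all windows. A further RefSeq start of Homer1 and of Homer2 had no core copy in its 250 bases. The AP-1 letters TGANTCA (6.75% of all windows), the E-box CACGTG (6.02%) and the serum response CArG box (1.47%) were in none of the 3 windows shown. The EGR letters GCGNGGGCG (4.70% of all windows) matched 1 time, in the Homer2 window, and the letters TATAAA (12.4%) matched in none of the 3. A match of letters is a description and not a measured site, and the GC content differed between the windows, at 62.4% for Homer1, 83.2% for Homer2 and 68.0% for Homer3.

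Homer1 was the member that changed with sleep deprivation. In wild type mice its mean level rose 2.27-fold (95% confidence interval 2.00 to 2.59), and over both genotypes it rose 2.27-fold (1.84 to 2.79). Homer2 and Homer3 did not pass the test in any of the 6 comparisons. None of the 3 genes passed for genotype or for a difference between genotypes in the response to sleep deprivation.

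The wild type baseline libraries, in the order of replicates 1 to 4, held 3826, 3216, 3792 and 3184 normalized counts of Homer1. After sleep deprivation wild type mice held 8275, 7814, 8255 and 7459. The groups did not overlap, and within each group the libraries lay close together, with a coefficient of variation of 10.05% in WT_BL and 4.92% in WT_SD. The group means were 3504 ± 352 and 7951 ± 391 (SD, n = 4), against a counting error of at most 1.87% per library. The difference was 1.19 ± 0.086 (SE) on the log2(normalized count + 1) scale, with an adjusted p of 0.000219 (limma with Benjamini-Hochberg adjustment over 14310 genes). By p it ranked 1 of all genes tested, and by size of increase 35. In this comparison 1.36% of genes were called in either direction, 0.853% as higher and 0.503% as lower, and the 2 groups did not overlap for 10.3% of genes. In the authors' deposited table Homer1 also ranked 1 by p in wild type, with a log2 ratio of baseline over sleep deprivation of -1.09 and a false discovery rate of 1.684e-33.

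In mice labelled knockout, Homer1 stood at 6339, 3480, 3802 and 4476 normalized counts at baseline and at 16530, 9827, 8681 and 6955 after sleep deprivation. Every sleep-deprived library was above every baseline one, although KO_SD 4 exceeded KO_BL 1 by little. The means were 4524 ± 1279 and 10498 ± 4191 (SD, n = 4). The spread was wider than in wild type, with coefficients of variation of 28.3% and 39.9%. Replicate 1 was the highest library of both groups, 1.42 times the next one in KO_BL and 1.68 times in KO_SD. It was also the highest in wild type, there by little, at 3826 against 3792 in WT_BL and 8275 against 8255 in WT_SD.

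The log2 difference in knockout was 1.18 ± 0.26 (SE), with a 95% interval from 0.60 to 1.75 and an adjusted p of 0.119 (limma, 14318 genes), so the call was missed at the threshold of 0.05. In this comparison 0.23% of genes were called, 0.189% as higher and 0.0419% as lower, while 8.23% of genes had groups that did not overlap. The call depended on the fit. It passed with DESeq2 on recovered reads (log2 difference 1.21, adjusted p = 0.00143) and with limma on all 16 libraries in 1 model (1.18, adjusted p = 0.00946). It missed with edgeR (adjusted p = 0.106) and with every single library left out. Without both replicates 1 the difference was 1.11, with an adjusted p of 0.0537 (limma). The authors' deposited table gives a log2 ratio of -0.83 for baseline over sleep deprivation in knockout, with a false discovery rate of 0.001516. Its p of 7.989e-06 lay near the unadjusted p of 8.1e-06 from DESeq2 on recovered reads. The smaller deposited ratio thus does not stand for a weaker test result.

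The response itself was compared between genotypes by an interaction term. For Homer1 the difference of the 2 responses was -0.0091 on the log2 scale, with a 95% interval from -0.63 to 0.61 and an adjusted p of 0.99996 (limma, 14604 genes). The interval holds responses in knockout from 0.645 to 1.53 times those in wild type. No gene was called for the interaction (0% of genes), 160 genes had an unadjusted p below 0.05, edgeR called 0 and DESeq2 called 1. Over both genotypes, with genotype in the model, the response of Homer1 was 1.18 ± 0.14 (SE), with an adjusted p of 8.41e-05 (limma), against 11.7% of genes called in either direction, 5.96% called as higher and 5.71% as lower. Homer1 was 1 of the 1.92% of genes whose 8 sleep-deprived libraries all lay on 1 side of the 8 baseline ones. This value rests on the same libraries as the 2 within-genotype values.

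**Figure D1:**
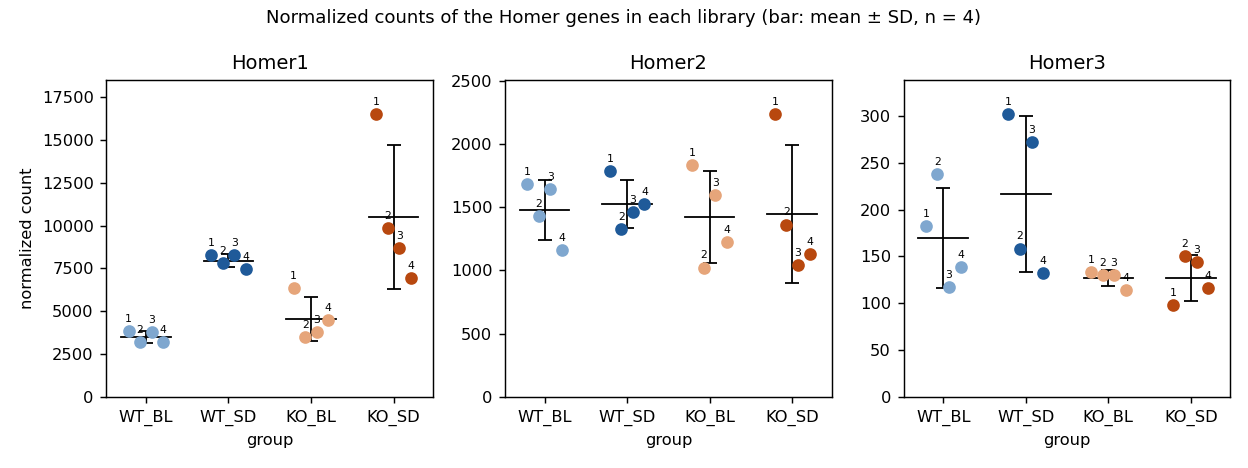
Normalized counts of Homer1, Homer2 and Homer3 (vertical axes, linear from 0, a separate scale per gene) in each of 16 libraries, by group; numbers are replicate numbers, and bars give the mean ± SD of 4 mice. Homer1 was higher in every SD library than in any BL library of its genotype, with KO_SD 1 at 16530, while the groups of Homer2 and of Homer3 overlapped.

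The order of Homer1 levels was KO_SD, WT_SD, KO_BL and WT_BL from highest to lowest. The 2 sleep-deprived groups overlapped, since KO_SD 4 lay below all 4 wild type libraries, and so did the 2 baseline groups. At baseline the knockout minus wild type difference was 0.33 ± 0.16 (SE) with an adjusted p of 0.982 (limma), in a comparison where 0.0139% of genes, 2 in number, were called (0.00697% in each direction) and 1.78% had groups that did not overlap. Without KO_BL 1 it was 0.16. After sleep deprivation it was 0.32 ± 0.22 (SE) with an adjusted p of 0.9998 (limma). There limma, edgeR and DESeq2 each called 0 genes (0% of genes), while 232 genes had an unadjusted limma p below 0.05 and 1.35% of genes had groups that did not overlap. Without KO_SD 1 the difference was 0.08.

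Homer2, which encodes a scaffold of the same domain plan, stood at 1680, 1427, 1639 and 1160 normalized counts in WT_BL and at 1785, 1328, 1459 and 1526 in WT_SD. In KO_BL it held 1833, 1022, 1597 and 1225, and in KO_SD 2238, 1362, 1044 and 1127. All 4 groups overlapped, and their means lay between 1419 and 1524. The sleep deprivation difference was 0.05 ± 0.13 (SE) in wild type, where the 95% interval ran from 0.86 to 1.26-fold, with an adjusted p of 0.870 (limma). In knockout it was -0.0076 ± 0.25 (SE), the interval ran from 0.68 to 1.46-fold, and the adjusted p was 0.993 (limma). Genotype differences of Homer2 were -0.08 at baseline and -0.14 after sleep deprivation, and its interaction was -0.06 with an interval from -0.70 to 0.58.

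Homer3, the third scaffold and the one best known from cerebellar Purkinje cells, was the member with the fewest reads, 60 to 275 per library, so that counting error alone was 6.03% to 12.9%. It held 182.5, 238.6, 117.6 and 138.9 normalized counts in WT_BL and 302.6, 158.5, 272.1 and 132.5 in WT_SD. The libraries labelled knockout held 133.6, 129.7, 130.6 and 113.9 at baseline and 97.61, 150.3, 144.4 and 116.1 after sleep deprivation. The wild type groups were wide and overlapped each other, and the knockout libraries sat in or below the lower part of the wild type range. The sleep deprivation difference was 0.32 ± 0.29 (SE) in wild type (adjusted p = 0.604, limma) and -0.016 ± 0.18 (SE) in knockout (adjusted p = 0.978, limma). Leaving out 1 library moved the wild type value between 0.13, without WT_SD 1, and 0.52, without WT_SD 4, and no omission gave a call.

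Between genotypes Homer3 had the largest difference of the 3 members. After sleep deprivation the knockout mean was 127 ± 24.7 against 216 ± 83.5 in wild type (SD, n = 4), a log2 difference of -0.70 ± 0.27 (SE). The unadjusted limma p was 0.0257 and the adjusted p 0.9998, so the difference did not pass, and the groups overlapped. At baseline the difference was -0.36 ± 0.20 (SE) with an adjusted p of 0.982 (limma). Its interaction was -0.34, with an interval from -1.09 to 0.42, and ran from -0.15 without WT_SD 1 to -0.54 without WT_SD 4. The baseline difference was -0.18 without WT_BL 2.

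Hippocampal markers were high in the wild type libraries that were high in Homer3, and not so in knockout. The summed normalized count of 8 markers of hippocampus ran from 677 to 1701 in WT_BL and 1157 to 2772 in WT_SD, and from 566 to 1018 in KO_BL and 949 to 1490 in KO_SD. The 4 libraries highest in Homer3, WT_SD 1, WT_SD 3, WT_BL 2 and WT_BL 1, had the 4 highest sums, 2630, 2772, 1563 and 1701. The marker Fibcd1 alone held 803.7, 1254, 825.9 and 1104 of these sums, so those of WT_BL 2 and WT_BL 1 rest mainly on 1 gene. Prox1, which marks dentate granule cells, was at 902.4 in WT_SD 1 and 621.4 in WT_SD 3, and between 259.9 and 385.8 in the other 6 wild type libraries. In knockout the mean sum was 772 at baseline and 1180 after sleep deprivation, while the mean of Homer3 was 127 in both groups. KO_SD 1, lowest of all libraries in Homer3, had a sum of 1322, and KO_SD 4 had 1490. None of the 8 markers was at 0 in all 4 libraries of a group. The part of hippocampal RNA in the Homer3 values was not tested. The 5 markers of cerebellum summed to 140 to 728 per library, and the cerebellar genes Pcp2 or Gabra6 were at 0 in 7 libraries. These were WT_BL 1, 2 and 4, WT_SD 3, and KO_BL 2, 3 and 4. Over both genotypes 5 of 5 cerebellar markers were higher after sleep deprivation, with a median of 2.04 on the log2 scale. Of these, 3 passed as higher (limma), against 5.96% of all genes. The part of cerebellar RNA in the Homer3 values was not tested either.

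**Figure D2:**
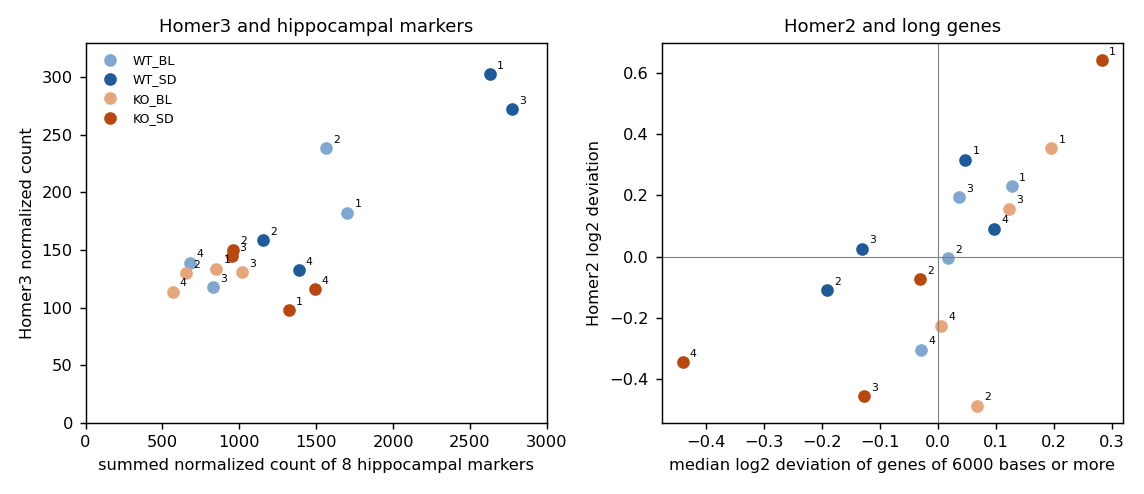
Left, Homer3 normalized count (vertical) against the summed normalized count of 8 hippocampal markers (horizontal); right, the log2 deviation of Homer2 from its mean over all libraries (vertical) against the median log2 deviation of 507 genes of 6000 bases or more (horizontal). Each point is a library, coloured by group and numbered by replicate; WT_SD 1 and WT_SD 3 stand apart on the left, KO_SD 1 and KO_SD 4 lie at the ends of the horizontal axis on the right.

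Homer1 was read against the other 2 members inside each library, where a factor common to a whole library cancels. The log2 of Homer1 minus that of Homer2 was 1.19, 1.17, 1.21 and 1.46 in WT_BL and 2.21, 2.56, 2.50 and 2.29 in WT_SD. In KO_BL it was 1.79, 1.77, 1.25 and 1.87, and in KO_SD 2.88, 2.85, 3.05 and 2.62. The SD and BL groups did not overlap in either genotype, and KO_SD 1, far above its group in Homer1, lay inside its group here. The SD minus BL difference was 1.13 in wild type and 1.18 in knockout, each with a two-sided exact permutation p of 0.0286, the smallest that 4 against 4 mice allow, and 0.0343 after adjustment over 6 tests. The 2 genotypes were not tested against each other on this measure. After sleep deprivation every knockout value was above every wild type value, the nearest being 2.62 in KO_SD 4 and 2.56 in WT_SD 2. The baseline groups overlapped, with 1.25 in KO_BL 3. This comparison was made after seeing the values, and how often other gene pairs are so separated was not counted.

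Against Homer3, Homer1 was higher after sleep deprivation by 0.87 on the log2 scale in wild type, where the groups overlapped (exact permutation p = 0.0857), and by 1.19 in knockout, where they did not (exact permutation p = 0.0286). Without KO_SD 1, which had the lowest Homer3 of all libraries, the knockout difference was 0.83 with an exact permutation p of 0.0571.

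**Figure D3:**
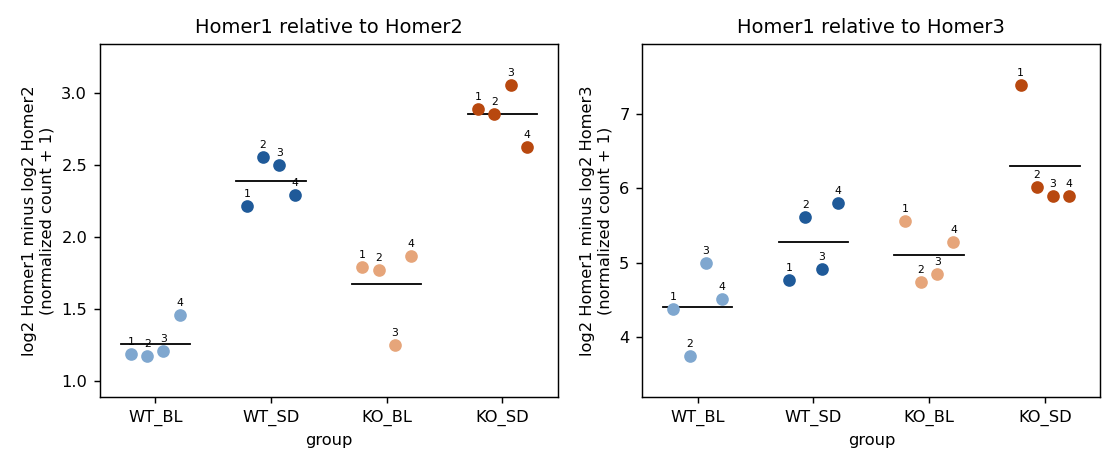
Log2 normalized count of Homer1 minus that of Homer2 (left) and of Homer3 (right) in each library, by group, with replicate numbers and the group mean as a bar; the axes do not start at 0. On the left SD libraries lie above BL libraries in both genotypes, from 2.21 to 2.56 against 1.17 to 1.46 in wild type and from 2.62 to 3.05 against 1.25 to 1.87 in knockout.

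Levels of different genes were compared per length, as FPKM. Homer1 was the most abundant member in every group, at 83.4 ± 6.67 FPKM in WT_BL and 189 ± 12.3 in WT_SD, with 107 ± 29.6 in KO_BL and 247 ± 95.6 in KO_SD (SD, n = 4). Homer2 lay between 6.65 and 7.17 FPKM and Homer3 between 4.66 and 8.02 FPKM as group means. Of the summed Homer FPKM, Homer1 made up 86.3% ± 2.29 in WT_BL and 92.6% ± 1.37 in WT_SD, and 90.2% ± 1.74 in KO_BL and 95.4% ± 0.842 in KO_SD (SD, n = 4). The SD and BL shares did not overlap within either genotype, with an exact permutation p of 0.0286 each and 0.0343 after adjustment over 6 tests. The shares, like the differences from Homer2 and Homer3, are built from the same Homer1 values as the rise itself and are not separate evidence of it. The mean share of Homer2 was 7.14% in WT_BL and 3.50% in WT_SD, and 5.67% in KO_BL and 2.62% in KO_SD.

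The sizes of these shares depend on the length that was assigned to each gene. The deposited lengths are 2170 bases for Homer1, 11000 for Homer2 and 1400 for Homer3, and for Homer2 this is near the longest annotated transcript, Homer2-202, of 10982 bases. With the median coding transcript length instead, 2468, 1685 and 2323 bases, Homer1 made up 60.0% in WT_BL and 76.4% in WT_SD, and 66.9% in KO_BL and 82.1% in KO_SD. Homer2 then took 36.8%, 21.4%, 31.0% and 16.7%. The order of Homer1 above Homer2 and the direction with sleep deprivation held with both lengths.

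**Figure D4:**
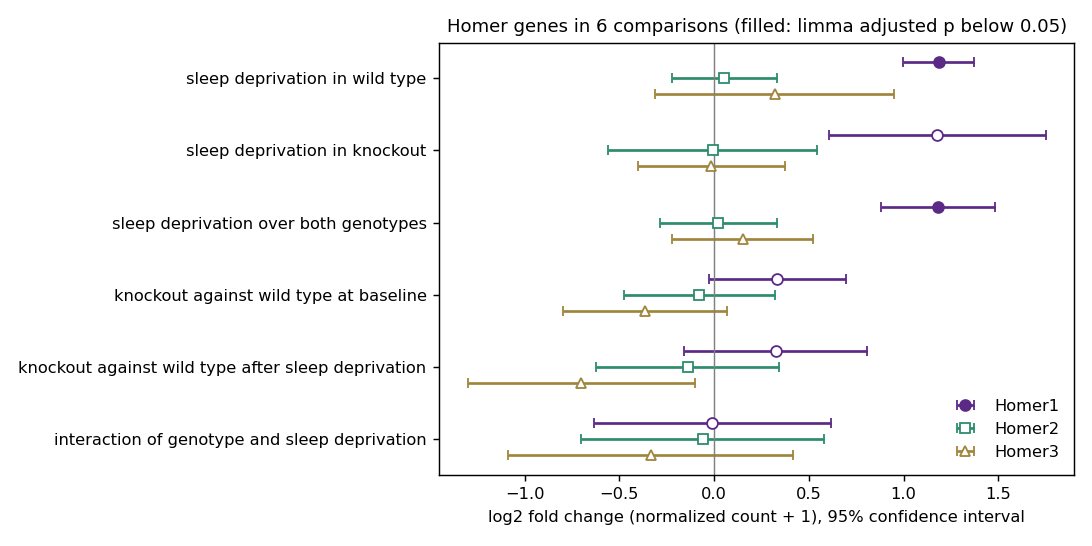
Log2 fold change of Homer1 (circles), Homer2 (squares) and Homer3 (triangles) in 6 comparisons, second named condition over first, with 95% confidence intervals; filled symbols have a limma adjusted p below 0.05. The filled symbols are Homer1 in wild type (1.19) and over both genotypes (1.18), and the knockout value of Homer1 (1.18) has a wider interval.

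Libraries of 1 group varied together in Homer1 and Homer2. As deviations from group means, the correlation of the 2 genes over 16 libraries was 0.83, against 0.34 before group means were removed. In both genes replicate 1 was the highest library of every group, and the correlation without these libraries was not computed. Homer3 had correlations of -0.11 with Homer1 and -0.04 with Homer2 as deviations. KO_SD 1 and KO_BL 1 were the 2 libraries highest in Homer2. The same 2 libraries had the highest median deviation of 507 genes of 6000 bases or more, 0.28 and 0.19 on the log2 scale, and KO_SD 4, the lowest KO_SD library in Homer1, had the lowest, -0.44. Genes in these libraries thus differed by length, and the part of this in the spread of Homer1 and Homer2 was not tested. Points of such a correlation share the library, its depth and its composition.

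Among 7302 genes above the median level, the 5 whose log2 level was most like that of Homer1 over 16 libraries were Stt3b (Pearson r = 0.97), Sfpq (0.96), Spred2 (0.95), Dnajc1 (0.94) and Bdnf (0.94). Stt3b encodes a catalytic subunit of the oligosaccharyltransferase, and its mean was 1877 normalized counts in WT_BL and 2443 in WT_SD, and 1996 in KO_BL and 2672 in KO_SD. Bdnf encodes a neurotrophin, and its deviations from group means had an r of 0.63 with those of Homer1, against 0.93 for Dnajc1. For Homer2 the genes were Cpd (0.92), Dgkg (0.90), Tcf4 (0.88), Rasa1 (0.88) and Prickle2 (0.88). For Homer3 they were Cabp7 (0.76), Rreb1 (0.73), Ksr1 (0.72), Arhgef25 (0.72) and Hmgn2 (0.70). Cabp7 averaged 822 ± 305 in WT_BL and 1251 ± 405 in WT_SD, and 480 ± 78.3 in KO_BL and 832 ± 83.3 in KO_SD (SD, n = 4).

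No gene for a Homer binding partner passed within either genotype. Of 15 such genes, 0 passed in wild type and 0 in knockout, with 9 and 13 of 15 lower after sleep deprivation and medians of -0.15 and -0.26 on the log2 scale. The median over all genes tested was -0.0013 and -0.0021. Agap2, which encodes PIKE, the phosphoinositide 3-kinase enhancer, had a mean of 16512 in WT_BL and 13388 in WT_SD (-0.30, adjusted p = 0.178, limma). Over both genotypes it fell and was the 1 partner of 15 that passed, with a log2 difference of -0.33 and an adjusted p of 0.0327 (limma). With 5.71% of all genes called as lower in that comparison, 1 of 15 is near the background. Itpr1, the inositol trisphosphate receptor of type 1, had differences of -0.45 in wild type and -0.46 in knockout and did not pass. The glutamate receptor gene Grm5 had differences of -0.18 in wild type and -0.31 in knockout, and did not pass either. Ryr3, a ryanodine receptor, was the partner with the highest value in wild type, 0.36 (adjusted p = 0.267, limma), and Shank3 stood at -0.30 (adjusted p = 0.290, limma). Markers of striatum were lower after sleep deprivation as well, with medians of -1.20 in wild type and -0.84 in knockout. The part of tissue composition in the values of the partners, and of the lists that follow, was not tested.

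Of 16 other postsynaptic density scaffolds, 0 passed within either genotype, 13 of 16 were lower in each, and the medians were -0.11 and -0.21. Over both genotypes Dlgap2, which encodes a protein that links PSD-95 to Shank, passed as lower with a log2 difference of -0.48 (adjusted p = 0.0396, limma). This 1 of 16 is also near the 5.71% of all genes called as lower. Dlgap3 had -0.45 and Frmpd4, a known Homer- and PSD-95-binding scaffold, had -0.37 in wild type, and neither passed. Of 12 genes of Gq signalling below the group I receptors, 0 passed within either genotype, with medians of -0.05 and -0.13. Plcb1, the phospholipase C that makes inositol trisphosphate, and Prkcb, a protein kinase C, passed over both genotypes with -0.39 (adjusted p = 0.0196, limma) and -0.33 (adjusted p = 0.0325, limma), which is 2 of 12 against the same 5.71%. Under other settings and with single libraries left out, the number called as lower over both genotypes ran from 0 to 5 among the partners, 0 to 5 among the scaffolds and 1 to 3 among the Gq genes.

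Among genes that neurons induce with activity, some rose in each genotype. Of 20 such genes, 20 had a higher mean after sleep deprivation in each genotype, with medians of 0.81 in wild type and 0.76 in knockout on the log2 scale. In wild type, where 0.853% of all genes were called as higher, 5 of 20 passed as higher, namely Fosb (1.54, adjusted p = 0.00216), Nr4a3 (1.23), Crem (0.70), Bdnf (1.05) and Ptgs2 (0.98), all by limma. In knockout, where 0.189% of all genes were called as higher, 6 of 20 passed, namely Fosb (1.55, adjusted p = 0.0128), Nptx2 (from a mean of 1037 to 2381), Ptgs2 (1.34), Bdnf (1.21), Nr4a3 (1.38) and Egr2 (1.52), again by limma. The knockout count was 2 without both replicates 1, and 0 without KO_BL 2, KO_BL 3 or KO_SD 3. Over both genotypes 14 of 20 passed as higher, against 5.96% of all genes, and 0 as lower. Arc, which encodes a cytoskeletal protein of active synapses, had 1.14 in wild type and 1.42 in knockout and passed over both genotypes with 1.28 (adjusted p = 0.0102, limma). None of the 20 passed for genotype or for the interaction. Hippocampal markers were higher too, 8 of 8 in wild type with a median of 1.19 and 7 of 7 tested in knockout with a median of 0.56, with 0 called in either. Over both genotypes 8 of 8 were higher and 2 passed. In the wild type comparison the 11 markers of striatum had a median of -1.20, with sums from 6268 to 26277 in WT_BL and 4910 to 7445 in WT_SD, and 0 of 11 passed. In knockout the striatal sums were 6726 to 20262 at baseline and 5471 to 12934 after sleep deprivation. There the median was -0.84, with 11 of 11 lower and 0 called. Over both genotypes 11 of 11 striatal markers were lower and 8 passed as lower (limma), against 5.71% of all genes. The part of tissue composition in the values of these lists was not tested.

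**Figure D5:**
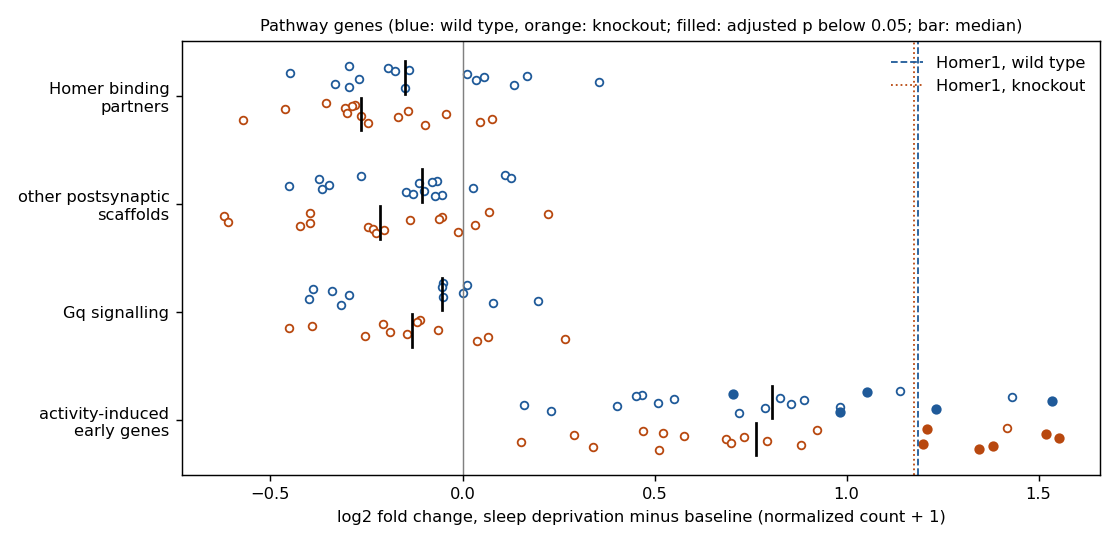
Log2 fold change of each tested gene of 4 lists, sleep deprivation minus baseline, in wild type (blue) and knockout (orange); filled symbols have a limma adjusted p below 0.05, black bars are list medians, and vertical lines mark Homer1 in each genotype. Filled symbols appear in the list of activity-induced genes, whose medians are 0.81 and 0.76, while the medians of the other lists lie between -0.26 and -0.05.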

How the data were processed

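Cortex RNA was column-purified, DNase I treated and read on a HiSeq2500, per the labels. RSEM 1.2.19, edgeR, mm10 and GRCm38 are named, without roles, in the submitters' processing notes. Annotation release and strandedness were not given in the sources used here. Each deposited normalized count is a signal, namely gene counts over a library factor, as the value steps and file headers show. The deposited FPKM uses 1 length per gene. The log2 ratio, p-value and false discovery rate quoted for the authors' table are as deposited by the authors, and the deposited GC fraction was not tested. In all libraries 100% of low values were whole reads within 0.1 read. Each of 4 sheets was normalized separately, with library factors differing by at most 0.264%; member levels come from the wild type sheet, each pairwise test from its own sheet, and the interaction and pooled tests from the wild type and knockout sheets.

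Features were tested with limma 3.58.1 (R 4.3.3; trend, robust) on log2(normalized count + 1), which understates changes of low genes, for genes at 10 or more in at least 4 libraries, two-sided, Benjamini-Hochberg threshold 0.05, 4 mice per group. It was tested on simulated data. edgeR 4.0.16 and DESeq2 1.42.0 on recovered reads, other scalings, pseudocounts and filters, and leaving out each library were alternatives; 3 were added after seeing the data. Permutation tests (numpy 2.4.6) enumerated all arrangements of mice. The counting error per library (1 over the square root of the reads) covers sampling of reads only. Every replicate pair differed by at least 7.66 chi-square per degree of freedom, so none was counted as a duplicate. Pairs of KO_SD ran from 13.5 to 91.5, and pairs of the other groups reached at most 38.2. Members and lists were chosen with earlier results of these data known. List members are named if they passed, or are the 4 with the smallest p where none or more than 4 passed; other values of list members were chosen after they were seen, and 1 list member is not reported here.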

Additional observations from a re-analysis of the deposited data

How the results depend on the processing

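The 24 results were recomputed under 455 alternatives, of which 414 kept direction and side of the threshold. Homer1 in wild type and over both genotypes passed under every setting run; leaving out 1 library gave 1.14 to 1.23 and 1.07 to 1.26. Homer1 in knockout passed under DESeq2 (1.21), 1 model of all 16 libraries (1.18) and the replicate block (1.18, adjusted p = 0.0134, limma), and missed otherwise, with 0.93 to 1.35 when 1 library was left out. Values near 0 changed sign. In knockout, Homer2 became 0.028 with edgeR and 0.026 with DESeq2, and Homer3 became 0.0094, 0.016 and, without both replicates 1, 0.13. The Homer1 interaction became 0.00066 with TMM scaling, 0.044 with edgeR and 0.033 with DESeq2, and Homer2 over both genotypes became -0.015 without both replicates 1. The cause was not tested. Leaving out 1 library gave interactions of -0.25 to 0.17 for Homer1 and -0.29 to 0.075 for Homer2, a Homer2 genotype difference at baseline of -0.21 to 0.066, and sleep deprivation differences of Homer2 of -0.058 to 0.12 in wild type, -0.24 to 0.13 in knockout and -0.083 to 0.087 over both genotypes. For Homer3 in knockout the range was -0.10 to 0.10, and Homer1 minus Homer3 in knockout ran from 0.83 to 1.34.

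Called genes numbered 194 in wild type (46 to 508 without 1 library, 79 to 663 under other settings, 663 with DESeq2; 46 without WT_SD 3 and 508 without WT_SD 4), 33 in knockout (0 to 70, 11 to 307, 307 with DESeq2; 0 without KO_BL 2 or KO_SD 3) and 1705 over both genotypes (1024 to 2318, lowest without WT_SD 3, and 1487 to 2374). The replicate block gave 230, 47 and 1990. Same-numbered libraries did not deviate together in every pair (correlations -0.19 to 0.37 in wild type and -0.39 to 0.68 in knockout). Those of replicate 1 did, with 0.37 between WT_BL and WT_SD and 0.68 between KO_BL and KO_SD. Between genotypes they had 0.37 at baseline and 0.63 after sleep deprivation, while each other number had a negative correlation in some pair. The labels give no pairing by number, so the block is no paired analysis by design. What the replicate 1 libraries share was not tested. The planned test of the count to FPKM ratio was not run, because the deposited length is constant across libraries. Homer3 had 60 to 275 reads, and in wild type its spread between mice (31.6% and 38.6%) was larger than its counting error (at most 8.36%).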
